A study of Mus musculus with 19 samples.

Results

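The regions described here are the YAP peaks called in mouse liver by ChIP-seq after 3 days and after 7 days of YAP induction, 110 peaks in the 3 d list and 1478 in the 7 d list, or 1588 of the 82869 peaks in the 6 lists of the series. Peaks of the lists were matched by an overlap of at least 1 bp and compared by pileup, the number of extended sequencing fragments that cover the summit. A 7 d peak with no overlapping 3 d peak is called a 7 d-only peak, and 1387 peaks belong to this class. The induced mice (ROSA26-rtTA-IRES-EGFP; tetYAP, C57BL/6) carried a doxycycline-dependent, activated YAP allele. They ate doxycycline food for 3 or 7 days. Wild-type (WT) controls carried ROSA26-rtTA-IRES-EGFP without tetYAP and ate doxycycline food for 7 days. According to the study's methods, an albumin-driven Cre removes the stop cassette in front of rtTA, which places the induction in hepatocytes, whereas the chromatin came from whole liver tissue with its other cell types. Livers for YAP were fixed with a protein crosslinker (DSG) and formaldehyde, and those for TEAD with formaldehyde alone. The age of the animals was not given in the sources used here. In all, 19 samples formed 6 groups of 3, or 4 for TEAD at 7 d, and the authors merged the replicates of a group before peaks were called. In whole tissue, fewer cells with YAP on a locus and less YAP per cell cannot be told apart. Each group has 1 list, so that no difference between days could be tested against the spread between animals, and intervals below cover counting error only. The YAP lists rest on 36221830 tags at 3 d and 34260362 at 7 d, so that the shorter list came from the library with 1.06 times as many tags.

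YAP is a transcriptional coactivator that does not bind DNA by itself. Hippo signalling phosphorylates YAP and keeps it in the cytoplasm, and unphosphorylated YAP enters the nucleus and contacts chromatin mainly through the TEAD transcription factors, which recognise the letters GGAATG or their complement CATTCC. In the liver, YAP is kept low in hepatocytes and is higher in biliary cells, and its activation in hepatocytes is known to cause liver overgrowth.

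Regions where YAP was already called at 3 d are shown first, since the comparison turns on them: 4 of the 5 early loci described below, which had YAP and TEAD at 3 d and no YAP peak in WT livers, and the Alb locus, where WT livers also had a YAP peak. Each line gives the mm9 reference sequence, plus strand, of a 121-bp window centred on the summit of the 3 d YAP peak, named by the gene that holds it or has the nearest start. Capitals mark GGAATG or CATTCC.
Tspan4, chr7:148662442-148662562: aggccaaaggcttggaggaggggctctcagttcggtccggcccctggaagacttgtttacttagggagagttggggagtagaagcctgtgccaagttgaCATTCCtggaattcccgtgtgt
Itga1, chr13:115880918-115881038: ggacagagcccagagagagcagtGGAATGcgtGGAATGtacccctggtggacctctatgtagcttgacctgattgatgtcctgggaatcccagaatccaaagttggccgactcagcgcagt
Bcl2, chr1:108526708-108526828: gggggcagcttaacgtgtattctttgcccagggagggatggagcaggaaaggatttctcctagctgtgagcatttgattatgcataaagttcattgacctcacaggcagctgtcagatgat
Stk10, chr11:32505254-32505374: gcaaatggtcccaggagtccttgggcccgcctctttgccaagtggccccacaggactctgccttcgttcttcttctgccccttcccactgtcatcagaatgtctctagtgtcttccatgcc
Alb, chr5:90879175-90879295: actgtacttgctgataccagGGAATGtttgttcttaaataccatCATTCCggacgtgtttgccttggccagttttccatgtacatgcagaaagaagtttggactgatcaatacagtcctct
The Tspan4 window held 1 such site, the Itga1 and Alb windows 2 each, and the Bcl2 and Stk10 windows none. The window of the fifth early locus, 1110034B05Rik, lies over an untranslated region and is not printed, and it held no site either, so that 2 of the 5 early windows held a site. Alb was the exception among 7 WT-shared loci with TEAD at 3 d, since the other 6 windows held no site. None of 10 windows at 3 d peaks with neither WT YAP nor TEAD held one.

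To describe the loci with a YAP call at 3 d, the 110 peaks of the 3 d list were sorted by their overlap with other lists. Most lay where WT livers also had YAP peaks in dense runs. The WT list contains 5 such domains, defined as 5 or more YAP peaks chained by gaps of at most 50000 bp, and they held 80 of the 110 peaks at 3 d (72.7%, 95% Wilson interval 63.7 to 80.2%). The domain on chromosome 1, at chr1:90108498-90207542 next to Heatr7b1, Hjurp and Trpm8, held 53 of them. Of the 30 peaks outside domains, 10 overlapped a WT YAP peak and 20 did not. Among these 20, TEAD was called at 3 d at 5 loci, and each of the 5 also had a YAP peak at 7 d and a TEAD peak in both other TEAD lists. These 5 are called early loci here.

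The early locus with the highest YAP pileup was in an intron of Tspan4, which encodes a tetraspanin membrane protein, 203 bp downstream of a start. Its YAP peak at chr7:148662310-148662740 had a pileup of 63 fragments at 3 d and 114 at 7 d. Per tag, the 7 d value was 1.91 times the 3 d value (95% exact binomial interval for the ratio of fragment numbers 1.39 to 2.65). TEAD pileup at this locus held rank 18 in the WT list, rank 13 at 3 d and rank 86 at 7 d, so that the locus was near the top of the TEAD list at every time.

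A second early locus lay in an intron of Itga1, the collagen-binding integrin alpha 1 subunit, 582 bp upstream of a start of Pelo, a ribosome rescue factor. The peak at chr13:115880848-115881126 had a pileup of 29 at 3 d and 52 at 7 d, 1.90 times per tag (1.18 to 3.10). Its TEAD peak ranked 5 of 36446 at 3 d, the highest TEAD rank among the 5 loci.

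Bcl2, which encodes an inhibitor of apoptosis, held an early peak in an intron, 84083 bp downstream of the nearest start, at chr1:108526631-108526880. Its YAP pileup was 24 at 3 d and 50 at 7 d, a ratio of 2.20 per tag (1.33 to 3.75). The TEAD rank was 473 without induction, 47 at 3 d and 74 at 7 d.

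At the start of 1110034B05Rik, 11 bp downstream, YAP pileup was 34 at 3 d and 55 at 7 d, a ratio of 1.71 (1.10 to 2.71), and TEAD ranked 272 at 3 d. In an intron of Stk10, a serine/threonine kinase, YAP pileup was 25 at 3 d and 27 at 7 d. The ratio of 1.14 had an interval of 0.638 to 2.05, which includes 1. At 4 of the 5 early loci the ratio was thus above 1 beyond counting error, and at Stk10 a difference was not detectable at this depth.

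**Figure D1:**
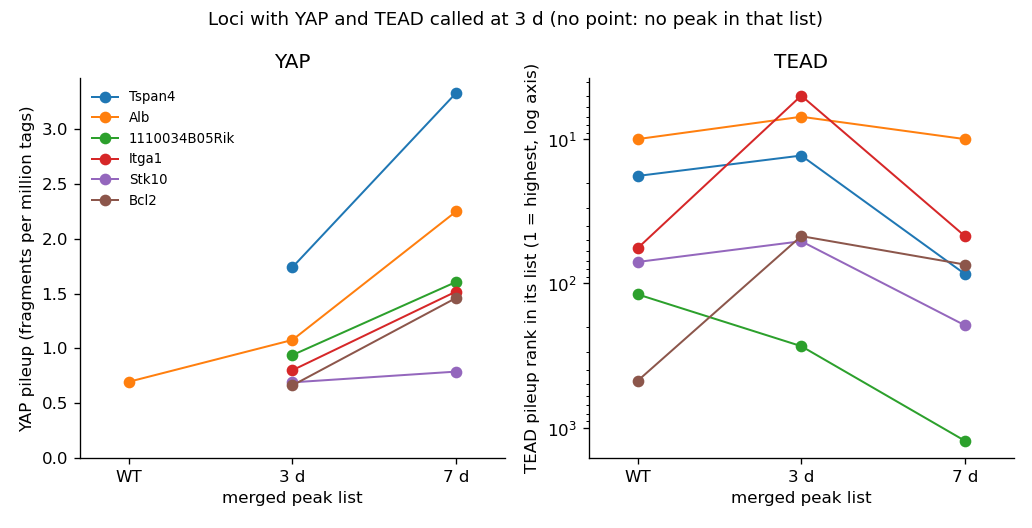
YAP pileup in fragments per 1000000 tags (left) and the rank of TEAD pileup in its list on a log axis (right, 1 is the highest) at the 5 early loci and at Alb, in the merged lists of WT livers, 3 d and 7 d. A missing point means that no peak was called: of these loci, only Alb had a YAP peak in WT livers, and TEAD ranks at 3 d were between 5 and 272.

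The Alb locus was the clearest of the 10 loci outside domains that WT livers shared. Alb encodes serum albumin, the main secreted product of hepatocytes, and its shared peak lay 10680 bp upstream of the start at chr5:90878739-90879478. YAP pileup was 38 in WT livers, whose library was deeper, 39 at 3 d and 77 at 7 d. The ratio of 7 d to 3 d was 2.09 per tag (1.40 to 3.15), and the TEAD rank was 10 without induction, 7 at 3 d and 10 at 7 d. The other 9 WT-shared loci included peaks near Dpy19l1, with a YAP pileup of 105 at 3 d and 107 at 7 d, and in an intron of D5Ertd579e, with 71 and 69. Around the D5Ertd579e summit the reference is a tandem repeat, in which a 121-bp window matched itself at 95.5% of bases after a shift of 33 bp. The rest lay near or in Gm15698 (49 and 44 fragments), Coil (32 and 30), Gm3054 (37 and 44), 4933412E24Rik (28 and 34), Gm17576 (33 and 32) and Sfi1 (64 and 63), and their intervals all included a ratio of 1. Of the 10, 9 had a YAP peak at 7 d and 7 had TEAD at 3 d, and the exception without YAP at 7 d was near 1700001F09Rik, with a pileup of 24.

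The remaining 15 peaks at 3 d had neither a WT YAP peak nor TEAD at 3 d. Of these, 6 had a YAP peak at 7 d and 9 did not. They included the highest pileups of the list, but with little enrichment over the local background. The strongest YAP peak at 3 d without a 7 d peak, at chr17:39980951-39981452 and 364526 bp from the start of Pgk2, had a pileup of 394 and a fold enrichment of 1.43. In and near Gm10801 and Gm10800 on chromosome 2, the pileup was 352 and 298 at 3 d and 351 and 294 at 7 d, with fold enrichments at 3 d of 1.52 and 1.91. The introns of Sfi1 held peaks of 202 and 188 fragments at 3 d, at 1.75-fold and 1.49-fold, with no peak at 7 d, and neither was there a 7 d peak at a more enriched Sfi1 locus of 67 fragments (5.83-fold). At the Pgk2, Gm10801 and Gm10800 loci TEAD was called in WT livers, at ranks 3, 5 and 6, and again after 7 d, at ranks 11, 42 and 129, but not at 3 d. These ranks are by pileup, and the TEAD fold enrichments were low. They were 1.7, 1.57 and 1.76 in WT livers and 1.42, 1.59 and 1.62 at 7 d. The smallest peaks of the class, near Cdh9, 1700001F09Rik and Gm8126 and in an intron of X99384, had pileups of 22 to 35 and fold enrichments of 4.54 to 5.21, and YAP was not called at any of them at 7 d.

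Pileup was then compared at loci called at both times. Of the 110 peaks at 3 d, 82 overlapped a 7 d peak (74.5%, 65.7 to 81.8%). Over these 82, the ratio of 7 d to 3 d pileup per tag had a median of 1.02, with quartiles of 0.916 and 1.16, and 45 of 82 were above 1. The median was 0.982 over the 62 loci in domains and 1.05 over the 20 outside. The 5 early loci had a median ratio of 1.90, against 1.02 for the 6 loci with neither WT YAP nor TEAD at 3 d and 1.04 for the 9 WT-shared loci. Counting intervals were above 1 at 5 of the 20 loci outside domains, which were Alb and the early loci other than Stk10, and below 1 at none of the 20.

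**Figure D2:**
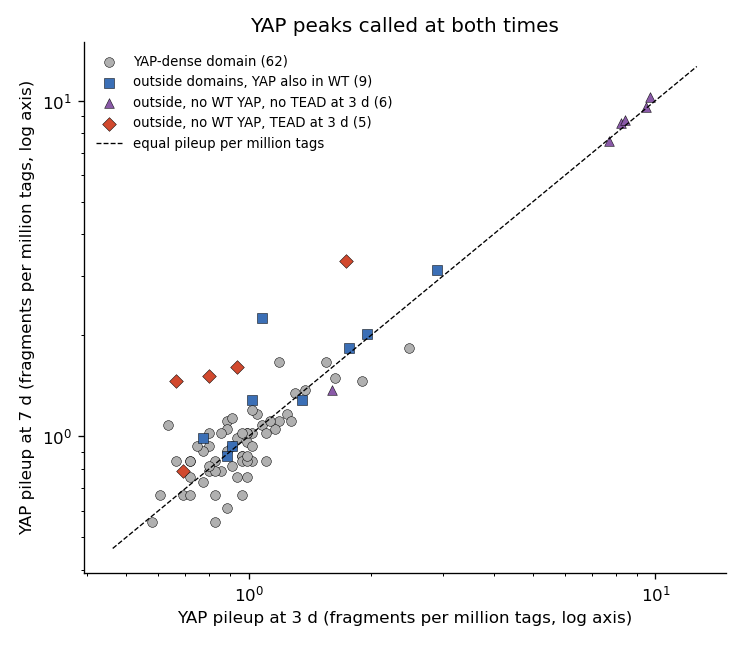
YAP pileup per 1000000 tags at 3 d against 7 d on log axes for the 82 loci called at both times; each point is a locus, the dashed line marks equal values, and symbols give the class. Loci in domains scatter around the line with a median ratio of 0.982, whereas 4 of the 5 early loci (diamonds) and Alb (the square farthest above the line) lie well above it.

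From the side of the 7 d list, 91 of 1478 peaks (6.16%, 5.04 to 7.5%) had a 3 d peak, and outside domains 22 of 1369 did (1.61%, 1.06 to 2.42%). At 7 d, the 91 peaks had a median pileup of 34, against 28 for the 1387 7 d-only peaks. The percentile of pileup in the 7 d list (100 is the highest) had a median of 73.2 for the 91 peaks, of 95.7 for the 22 outside domains and of 46.6 for 7 d-only peaks. The order of the 91 peaks and the rest reversed under both other measures: by fold enrichment, which divides the pileup by the local background, the medians were 15.3 for the 91 and 52.7 for 7 d-only peaks, and by −log10 p-value they were 37.4 (95% interval 30.2 to 52.6, which includes the other median) and 50.6. For the 22 outside domains the median fold enrichment was 5.81, against 5.89 for 7 d-only peaks. Their median −log10 p-value was 20.6, against 13.0. The 5 early loci had a median percentile of 95.2 by pileup in the 7 d list. Only 2 of the 7 d-only peaks had a higher pileup than Tspan4 at 7 d, but 40 had more than 1110034B05Rik, 56 more than Itga1, 67 more than Bcl2 and 769 more than Stk10. Near the limit of the overlap rule, 28 of the 7 d-only peaks lay within 1000 bp of a 3 d peak, 26 of them in domains, and the smallest gap outside domains was 96 bp.

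Since the 3 d library was the deeper, it was asked whether the 7 d-only peaks would have passed the calling cutoff at 3 d had their pileup per tag been the same. The local background of each peak was rescaled by tag number, which was checked at 27 loci with summits within 100 bp at both times: the median ratio of the backgrounds was 1.06, as was the ratio of the tag numbers. All 1387 7 d-only peaks had a rescaled pileup above the number needed for a −log10 p-value of 5, the caller's cutoff. This follows in part from their selection, since each had passed the same cutoff at 7 d with fewer tags. The rescaled pileup was 1.70 times the needed number at the median (quartiles 1.49 and 2.05), 1.10 times at the lowest and 7.21 times at the highest. When the lower end of the 95% Poisson interval of each pileup was used, 972 peaks (70.1%) were still past the number needed. The same selection bears on these 972, since a call at 7 d favours loci whose 7 d pileup came out high. A difference in enrichment between the 2 libraries was not tested either. The number of 972 also depends on the cutoff. The lowest −log10 p-value in the 3 d list was 6.43, and with that value in place of 5 the number was 695 (50.1%). With 10 it was 361 (26.0%). Counting error of the 3 d fragments, which the list does not give for uncalled loci, was not included. A missing call does not show that YAP was absent at 3 d. The 5 early loci had a median ratio of 7 d to 3 d pileup of 1.90, larger than the median of 1.70 here. Whether YAP reached the 7 d-only loci later than the early loci was not tested.

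**Figure D3:**
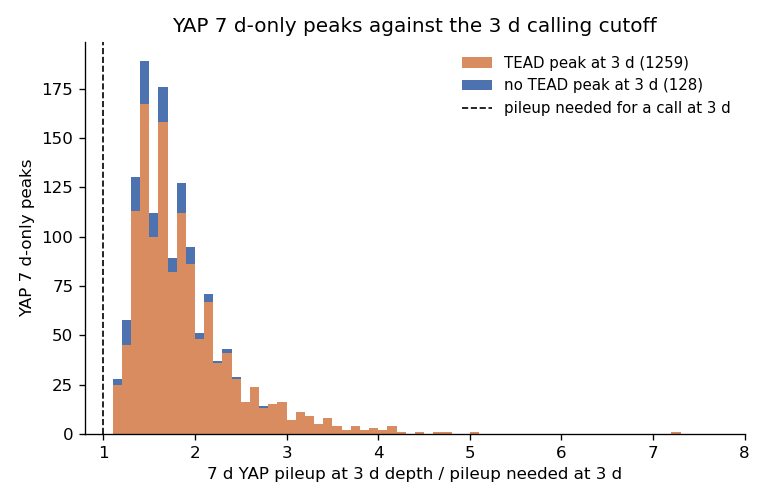
Numbers of YAP 7 d-only peaks by the ratio of the 7 d pileup, rescaled to the 3 d tag number, to the pileup needed for a call at 3 d, stacked by TEAD state at 3 d; the dashed line marks a ratio of 1. The lowest ratio is 1.10 and the median 1.70, and peaks without TEAD at 3 d all lie at or below 2.70.

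The 7 d-only peak farthest past the cutoff was in an intron of Gm20388, with a pileup of 116, a fold enrichment of 25.3 and a ratio of 7.21 to the needed number. It ranked 7 in the whole 7 d list, and TEAD was called there in WT livers at rank 1280 and at 3 d at rank 93. The 10 7 d-only peaks with the highest pileup also included an intron of Aldh1l1, a folate-metabolising dehydrogenase, with a YAP pileup of 82 and TEAD ranks of 36 in WT livers and 26 at 3 d. An intron of Exph5, which encodes a Rab27 effector, had a pileup of 77, with TEAD at rank 39 at 3 d and no TEAD peak in WT livers. Peaks of 67 to 84 fragments lay at or near 2700078E11Rik, Nln, a peptidase, Rnf44, a RING finger protein, Ncald, a neuronal calcium sensor, Mrpl36, a mitochondrial ribosomal protein, and Ninj2, an adhesion molecule. All 10 had TEAD at 3 d, with ranks from 25 at Rnf44 to 891 at Ncald, and 6 had TEAD in WT livers. The highest pileup of all, 186 in an intron of Sfi1, had a fold enrichment of only 1.80, no TEAD peak in WT livers and a rescaled pileup 1.25 times the number needed. The TEAD peak there at 3 d, of rank 68 by pileup, had a fold enrichment of only 1.84.

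The windows below are examples of 7 d-only loci and do not measure a contrast with the early loci above. Aldh1l1 and Exph5 had strong TEAD peaks at 3 d, Ctgf is a known target of YAP and TEAD, and Frmpd1 and Mtnr1b had no TEAD peak until 7 d. Each line is the mm9 plus strand, 121 bp centred on the summit of the 7 d YAP peak, with GGAATG or CATTCC in capitals.
Aldh1l1, chr6:90458329-90458449: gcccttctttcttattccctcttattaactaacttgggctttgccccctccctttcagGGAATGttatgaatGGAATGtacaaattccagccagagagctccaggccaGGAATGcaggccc
Exph5, chr9:53133976-53134096: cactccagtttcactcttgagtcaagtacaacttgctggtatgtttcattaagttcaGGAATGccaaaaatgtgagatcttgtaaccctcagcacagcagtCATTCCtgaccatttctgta
Ctgf, chr10:24315084-24315204: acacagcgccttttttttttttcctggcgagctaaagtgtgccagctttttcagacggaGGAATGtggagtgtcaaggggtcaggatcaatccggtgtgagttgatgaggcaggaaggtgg
Frmpd1, chr4:45211409-45211529: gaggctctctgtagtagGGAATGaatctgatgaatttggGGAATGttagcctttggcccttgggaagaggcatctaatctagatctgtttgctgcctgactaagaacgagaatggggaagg
Mtnr1b, chr9:15599001-15599121: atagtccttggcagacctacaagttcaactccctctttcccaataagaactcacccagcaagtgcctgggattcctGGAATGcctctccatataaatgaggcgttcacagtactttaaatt
Aldh1l1 held 3 sites, with the nearest centred 0.5 bp from the YAP summit, Exph5 and Frmpd1 held 2 each, and Ctgf and Mtnr1b held 1 each. At Ctgf the site was centred 1.5 bp from the summit. Every window printed here held a site, which was not so for all 7 d-only loci. Of the 10 7 d-only windows with the highest pileup, 8 held a site. Of the 10 highest without TEAD at 3 d, 4 held one, Frmpd1 and Mtnr1b among them, and 6 did not.

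The TEAD state at 3 d was examined next, to ask whether TEAD was in place where YAP was called only at 7 d. A TEAD 3 d peak overlapped 1259 of the 1387 7 d-only peaks (90.8%, 89.1 to 92.2%), against 71.2% of all 38984 TEAD peaks at 7 d. The difference from this background goes with TEAD pileup. Within the top decile of TEAD 7 d peaks by pileup, 94.6% of the peaks with YAP 7 d-only (1079 of 1141, 93.1 to 95.7%) and 94.3% of those without (2633 of 2791, 93.4 to 95.1%) had TEAD at 3 d, a difference smaller than either interval. In the ninth decile the shares were 82.4% with YAP (117 of 142, 75.3 to 87.8%) and 89.1% without (3340 of 3748, 88.1 to 90.1%). In the top decile the shares could not be told apart, and in the ninth the share was lower with YAP, with intervals that do not overlap.

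Over the 3 TEAD lists, 725 of the 7 d-only peaks (52.3%, 49.6 to 54.9%) had TEAD in all 3. A further 528 (38.1%, 35.5 to 40.7%) had TEAD at 3 d and 7 d but not in WT livers. TEAD was called at 7 d alone at 101 (7.28%, 6.03 to 8.77%), and no list had TEAD at 16, of which 12 lay in domains. The median YAP pileup at 7 d differed little by this history. It was 29 for TEAD in all 3 lists, 28 for TEAD from 3 d and 27 for TEAD at 7 d alone. The quartiles were 25 and 36, 24 and 33, and 24 and 30. High pileups differed more: 371 of 1259 peaks with TEAD at 3 d had at least 2 times the number needed for a call at 3 d, against 12 of 128 without. Per the file headers, the caller extended TEAD fragments to 400 bp in the WT list but to 207 and 206 bp in the induced lists, so that absence from the WT list, which holds 5695 peaks, is less certain.

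YAP peaks called only at 7 d lay mainly over the TEAD peaks that were highest at 3 d. The TEAD 3 d peak under a 7 d-only YAP peak had a median pileup of 111 and a median percentile of 95.6 in its list (95 to 96), with quartiles of 87.6 and 98.5. In all, 889 of 1259 (70.6%) were in the top decile and 64 (5.08%) in the lower 50%. A 7 d-only YAP peak overlapped 3.45% of all 36446 TEAD peaks at 3 d. The share was higher in each next decile of TEAD pileup, from 0.139% in the lowest (5 of 3596) to 4.66% in the ninth decile (166 of 3560) and 24.0% in the top decile (880 of 3660, 22.7 to 25.5%). High TEAD pileup was not enough for a YAP call: of the 102 TEAD peaks that ranked 100 or better at 3 d, ties included, 76 had a YAP 7 d-only peak, 5 a YAP 3 d peak and 22 no YAP peak at either time. The 5 were those at Itga1, Alb, Tspan4, Bcl2 and Stk10, and the TEAD peak at Stk10 held both kinds and is counted under each.

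YAP and TEAD summits nearly coincided. The distance between the YAP 7 d summit and the TEAD 3 d summit had a median of 34 bp (quartiles 15 and 65), and 1097 of 1259 pairs (87.1%) were within 100 bp. Per tag, the ratio of 7 d to 3 d TEAD pileup had a median of 1.70 at 1245 TEAD 7 d peaks with a YAP 7 d-only peak (quartiles 1.41 and 2.36) and of 1.31 at 26508 without (1.09 and 1.60). The value per tag was higher at 7 d at 97.0% of the former and 83.2% of the latter. In the top decile of TEAD at 3 d the medians were 1.56 and 1.33. The difference had no replicates behind it and was not tested.

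**Figure D4:**
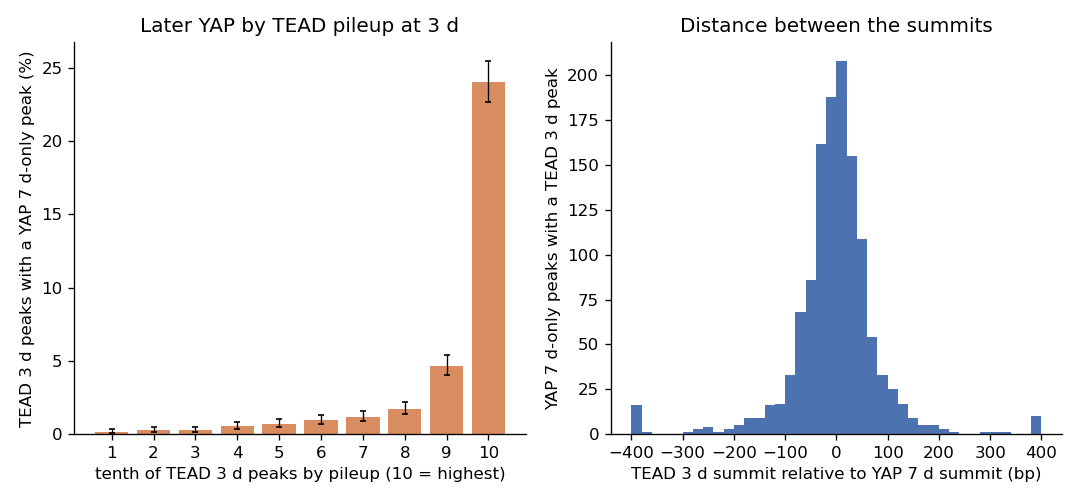
Left, the share of TEAD 3 d peaks that overlap a YAP 7 d-only peak for each decile of TEAD pileup at 3 d (bars) with 95% Wilson intervals; the share goes from 0.139% in the lowest decile to 24.0% in the top decile. Right, the position of the TEAD 3 d summit relative to the YAP 7 d summit in bp for 1259 peaks, with values beyond the axis placed in the outermost bins; 87.1% lie within 100 bp.

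The 128 7 d-only peaks without TEAD at 3 d (9.23%, 7.82 to 10.9%) were mostly loci where TEAD was called together with YAP at 7 d. A TEAD 7 d peak was present at 102 of them (79.7%, 71.9 to 85.7%). At the 101 called at 7 d alone, TEAD was strong at 7 d, with a median pileup of 99 and a median percentile of 92.4. Rescaled to the tags and fragment length at 3 d, the TEAD pileup was past the number needed for a call at 3 d at all 102. The median was 7.29 times that number (1.49 to 17.0 times). Passing follows in part from the selection, since each TEAD peak had passed the caller's cutoff at 7 d with fewer tags.

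By pileup, the first of the 128 was a peak 4403 bp upstream of the start of Tmem125, with a YAP pileup of 62, a fold enrichment of 3.21 and no TEAD peak in any list. The reference there is a tandem repeat, in which a 121-bp window matched itself at 96.1% of bases after a shift of 44 bp. The next 9 all had TEAD at 7 d and none in WT livers. The peak 79939 bp downstream of Mtnr1b, a melatonin receptor gene, had a YAP pileup of 46 and a TEAD pileup of 108 at 7 d. A peak 289783 bp downstream of the start of Sox9, a transcription factor of biliary and progenitor cells, had 37 and 142. The intron of Ptprd, a receptor tyrosine phosphatase, had 37 and the highest TEAD pileup of the group at 7 d, 212. The others were at or near Tbc1d2b, Dscaml1, a cell adhesion molecule, Frmpd1, Gng2, a G protein subunit, Smap1, an Arf GTPase-activating protein, and Tmprss2, a membrane serine protease, with YAP pileups of 35 to 39. The nearest start to a distal peak is a name only, and no link between peak and gene was measured.

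Position relative to genes was compared between these classes on numbered chromosomes and X. A promoter, from 2000 bp upstream to 1000 bp downstream of a start, was overlapped by 238 of 1379 7 d-only peaks (17.3%, 15.4 to 19.3%), against 32.6% of the TEAD 3 d peaks without one (11469 of 35164, 32.1 to 33.1%). The share was 22.9% (20 to 26.1%) where TEAD was in the WT and 3 d lists, 11.1% (8.73 to 14.1%) where TEAD was present at 3 d but not in WT livers, and 10% (5.81 to 16.7%) without TEAD at 3 d. TEAD peaks of the top decile at 3 d without YAP 7 d-only were at promoters in 31.6% (29.9 to 33.4%), so the lower share of promoters under YAP was also seen against TEAD peaks of high pileup. The YAP 7 d-only peaks were thus mainly distal, with 43.1% in gene bodies and 39.7% between genes.

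Motif letters were counted on either strand in windows of 201 bp centred on the summits. GGAATG, the core of the TEAD site, was present at 61.7% of 7 d-only peaks (59.1 to 64.2%), at 10.7% of windows 2000 bp downstream of the same summits and at 7.99% of windows at starts of protein-coding genes. It was at 55.0% of those without TEAD at 3 d (46.1 to 63.6%) and 65.2% of those with TEAD in the WT and 3 d lists (61.6 to 68.5%). In windows of 101 bp these shares were 38.3% (30.1 to 47.3%) and 50.8% (47.1 to 54.4%). The share was lower without TEAD at 3 d in both, with intervals that overlap. In windows of 201 bp at the top decile of TEAD at 3 d, 69.9% of peaks with YAP 7 d-only (66.8 to 72.8%) held GGAATG. Of those without, 55.9% did (54.1 to 57.8%). The TEAD site with an added T in front, TGGAATG, which is contained in the shorter search, was at 27.2% of 7 d-only peaks. The AP-1 letters TGANTCA stood at 10.9% of 7 d-only peaks (9.41 to 12.7%), 6.38% of the windows 2000 bp downstream (5.21 to 7.8%) and 4.16% of gene starts. They were at 20.8% of the 7 d-only peaks without TEAD at 3 d (25 of 120, 14.5 to 28.9%) and at 9.33% of those with TEAD in the WT and 3 d lists (7.42 to 11.7%). In windows of 101 bp this difference was lost, with 6.67% (8 of 120, 3.42 to 12.6%) and 4.94% (3.59 to 6.76%). Letters of 3 hepatocyte factors were also searched, each with its own background in the windows 2000 bp downstream. CAAAGTCCA of HNF4 was at 1.81% of 7 d-only peaks (1.23 to 2.66%) and 0.435% of those windows (0.2 to 0.946%). TGTTTAC of FOXA was at 6.82% (5.6 to 8.27%) and 2.90% (2.14 to 3.93%), and TTGCNNAAT of CEBP at 6.67% (5.47 to 8.11%) and 1.38% (0.884 to 2.14%). Each was thus more frequent at the summits than downstream of them. The shares were closer at TEAD 3 d peaks of the top decile without YAP 7 d-only. There HNF4 letters were at 1.87% (1.43 to 2.45%), FOXA at 5.98% (5.16 to 6.92%) and CEBP at 5.08% (4.32 to 5.96%). All 3 intervals overlap those of the 7 d-only peaks. In windows of 101 bp the intervals overlapped for HNF4 and FOXA but not for CEBP. There CEBP letters were at 4.64% of 7 d-only peaks (3.65 to 5.88%) and 2.41% of the top-decile TEAD peaks without one (1.90 to 3.05%). Outside domains, 5 of 18 peaks called at both times held GGAATG (27.8%, 12.5 to 50.9%).

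To relate the loci to liver biology, 7 gene lists were searched for peaks within 20000 bp of a start. YAP at 7 d was near 4.54% of 22380 protein-coding genes, YAP at 3 d near 0.143% and TEAD at 3 d near 60.1%. In the lists, 22 genes had 33 YAP 7 d peaks, and 32 of the 33 were 7 d-only, the exception being the WT-shared peak upstream of Alb. All 32 had a TEAD peak at 3 d and at 7 d, 25 had TEAD in WT livers, and their YAP pileups ran from 23 to 55. Their rescaled pileups were 1.43 to 3.42 times the number needed for a call at 3 d.

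Of 22 canonical YAP targets, 5 had YAP at 7 d (22.7%) and none at 3 d, whereas 18 had TEAD at 3 d. Ctgf, a secreted matricellular protein, had a YAP pileup of 48 at its promoter, 104 bp upstream of the start, over a TEAD peak of rank 62 at 3 d. Amotl2, an angiomotin family member that binds YAP, had 5 YAP peaks, the most of any gene outside domains. The strongest was 16 bp from a start, with a YAP pileup of 49 and a TEAD rank of 30 at 3 d, and 2 of the 5 YAP peaks overlapped no TEAD peak of WT livers. For 1 of these 2 the TEAD 3 d peak, of rank 185, spanned the neighbouring YAP peak as well and overlapped a WT TEAD peak there. Nuak2, an AMPK-related kinase, had 1 peak of 38 fragments, F3, the gene of tissue factor, 1 of 30, and Ptpn14, a phosphatase that restrains YAP, 1 of 24. The F3 peak stood over a weak TEAD peak that ranked 9400 at 3 d and was absent in WT livers. Cyr61, a relative of Ctgf, had 6 TEAD peaks at 3 d within the window and no YAP peak at either time.

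Among 25 Hippo pathway and TEAD genes, 6 had YAP at 7 d, none at 3 d and 23 TEAD at 3 d. Amotl2 and Ptpn14 are in both lists. Vgll4, a TEAD cofactor that competes with YAP, had 3 intronic peaks of 45, 37 and 28 fragments, over TEAD ranks of 292, 87 and 7492 at 3 d. Wwc2, an upstream regulator of LATS kinases, had a peak of 55 fragments 190 bp upstream of its start, the highest of the listed 7 d-only peaks, and a weaker one of 23 in an intron. Wwc1 had an intronic peak of 26 fragments, and Wwtr1, which encodes the YAP paralogue TAZ, had a promoter peak of 28. Tead1 and Tead4 had TEAD peaks at 3 d, with best ranks of 2682 and 267, and no YAP peak at either time.

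Of the liver lists, 1 of 17 hepatocyte transcription factors had YAP at 7 d, the bile acid receptor gene Nr1h4 with 24 fragments, although all 17 had TEAD at 3 d. Of 18 hepatocyte products, 4 had YAP at 7 d and all 18 TEAD at 3 d. Besides its WT-shared peak, Alb had 2 further peaks of 24 and 25 fragments. Apoe, an apolipoprotein gene, had a peak of 26, to which the start of Apoc1 was nearer. Pck1 and G6pc, enzymes of gluconeogenesis, had peaks of 23 and 29. Of 15 biliary and progenitor markers, 2 had YAP at 7 d and 8 TEAD at 3 d: Notch1, with a pileup of 28, and Notch2, with 25, both receptors of the pathway that drives biliary fate. Sox9 itself had no TEAD peak within 20000 bp at 3 d and 3 at 7 d.

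AP-1 genes had the highest share, 4 of 9 with YAP at 7 d, none at 3 d and 8 with TEAD at 3 d. The peaks were near Junb with 50 fragments, Fosl2 with 38, Fos with 36 and Atf3 with 27. The first of them lay in an intron of Rnaseh2a, 18590 bp downstream of the Junb start. The Fos peak, 5211 bp downstream of the start, stood over a TEAD peak of 43 fragments at 3 d and 172 at 7 d, absent in WT livers. Of 12 proliferation genes, all 12 had TEAD at 3 d and 2 had YAP at 7 d. Ccnd1, the gene of cyclin D1, had 3 peaks of 45, 30 and 26 fragments, the first in an intron of Oraov1. Cdc6, a replication licensing factor, had 1 of 35 in an intron of Rara. The lists are short, and a gene with several starts or in a gene-rich region has more chances to hold a peak, so that the shares describe the lists and were not tested.

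**Figure D5:**
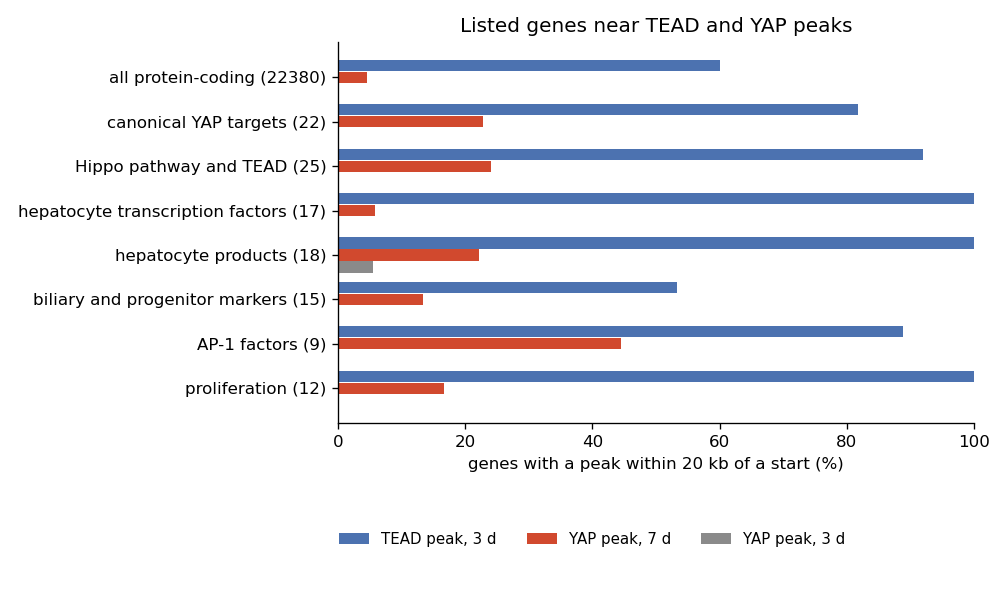
Share of genes with a TEAD peak at 3 d, a YAP peak at 7 d or a YAP peak at 3 d within 20 kb of a start, for all 22380 protein-coding genes and for the 7 lists, with the number of genes in parentheses. TEAD at 3 d is near all genes of 3 lists, YAP at 7 d is near 5.88 to 44.4% of the genes of a list against 4.54% of all genes, and YAP at 3 d is seen only for Alb among the listed genes.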

How the data were processed

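YAP and TEAD ChIP-seq of mouse liver was used as deposited, as 1 MACS peak list per group. According to the study's methods and the submitters' processing notes, the authors aligned reads to mm9 with BWA 0.6.2, merged replicates, removed duplicates (SAMtools) and called peaks with MACS2 2.0.9 at a −log10 p-value of 5 against a published input. Per the file headers, the control held 167176362 tags for every list, and fragment length was 250 bp for YAP, 400 bp for TEAD in WT livers, 207 bp at 3 d and 206 bp at 7 d. A longer fragment gives wider peaks and a higher background. The deposited pileup is a signal, the number of fragments over the summit, and the deposited fold enrichment is the ratio of this pileup to the background around the peak. The authors' −log10 p-value was used for filters and ties, and their −log10 q-value was not used.

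Here, peaks were matched by an overlap of at least 1 bp. Pileups were set per tag and ranked within a list. The pileup needed for a call at 3 d was the smallest whose Poisson p-value, under the 7 d local background rescaled by tag number, passed the cutoff. This formula returned the deposited −log10 p-values with a median difference of 0.00599 (3 d) and 0.00464 (7 d). Shares have 95% Wilson intervals, medians binomial intervals, and ratios of 2 pileups exact binomial intervals, all for counting error only. Genes and sequence came from GENCODE and NCBIM37, the assembly of mm9. The named peaks were all 3 d peaks outside domains on numbered chromosomes or X, the 10 7 d-only peaks and the 10 without TEAD at 3 d with the highest pileup, listed genes with YAP within 20000 bp of a start, and the strongest 3 d peak without a 7 d peak; ties went by −log10 p-value, and a peak was named by the protein-coding gene that holds it or else by the nearest start. The members, domains and gene lists were chosen with earlier results of these data known. Scripts used Python and scipy and were tested on simulated peaks. Steps based on annotation or sequence used peaks on numbered chromosomes and X.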

Additional observations from a re-analysis of the deposited data

How the results depend on the processing

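No paired analysis was possible because each deposited list pools its replicates and carries no replicate number. For the same reason no replicate could be left out. Of 50 alternatives for 15 results, 23 left the value within its interval, or a count within 1.5 times, 25 moved it and 2 reversed an order. The cause of a move was not tested unless the alternative itself sets it. The share of 7 d YAP peaks called at 3 d (6.16%) was 1.89% with summits at most 100 bp apart, 4.74% with windows of 200 bp around summits, 2.86% among peaks of at least 5-fold, 4.83% at a −log10 p-value of at least 10, 1.61% without domains and 1.02% without WT YAP peaks. The share of 3 d peaks called at 7 d (74.5%) was 63.6% with an overlap of 50%, 25.5% by summits, 61.8% by windows, 61.0% at the stricter p-value and 48.3% without WT YAP peaks. TEAD at 3 d under 7 d-only peaks (90.8%) was 76.4% by summits, 88.5% by windows and 92.2% without domains. The number of early loci (5) was 4 to 6 under the overlap rules and stricter cutoffs, which were added after the data were seen; with at least 5-fold required in each list it was 6, since Bcl2 (4.96-fold) dropped out and Alb and 4933412E24Rik, whose WT YAP peaks were weaker than that, came in. The median ratio at both times was 1.05 without domains. The median percentile of the 91 shared peaks (73.2, against 46.6 for 7 d-only peaks) was 15.3 by fold enrichment and 37.4 by −log10 p-value, both below the 7 d-only peaks (52.7 and 50.6), and 95.7 without domains. Past a −log10 p-value of 10 at 3 d were 82.4% of the 7 d-only peaks, against 100% at the caller's cutoff and 99.8% at 6.43, the lowest value in the 3 d list (added after the data were seen); with the lower end of the counting interval these shares were 26.0%, 70.1% and 50.1%. The promoter share (17.3%) was 14.1% within 1000 bp and 15.3% for protein-coding genes. Listed genes with YAP at 7 d numbered 22 of 115, 8 by promoters and 38 within 50000 bp, against 1.04% and 9.29% of all genes. Within 50 bp of the summit, a shorter window, GGAATG was at 46.8%, and the AP-1 letters without TEAD at 3 d were at 6.67% in place of 20.8%. The depth of the merged lists limits weak loci: a pileup of 17 fragments was needed at the median for a call at 3 d.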
